A study of Mus musculus with 15 samples.

Results

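Regulatory T cells (Tregs) from untreated mouse skin were compared between mice with floxed Rora alleles and mice without them. The comparison used 6 of the 15 sequenced libraries, 3 per genotype, chosen by their labels alone. All mice were C57BL/6 and expressed Cre recombinase with a yellow fluorescent protein (YFP) from the Foxp3 gene. The 3 wild-type (WT) libraries came from Foxp3 cre-eyfp mice and the 3 conditional knockout (cKO) libraries from Foxp3 cre-eyfp Rora fl/fl mice. Both genotypes therefore carried the Cre and YFP allele, and recombination was directed to cells that express Foxp3. The mice of these 6 libraries received no treatment. Adult Tregs were sorted as CD45+CD3+CD4+YFP+ cells from back skin and ears together after a digestion of 90 minutes. The labels call the libraries biological replicates and do not say whether animals were pooled, so each p-value given here reflects the spread among libraries, pooled over the 5 groups of the 15 libraries in the fit, which may be technical. The other libraries were 3 of each genotype from ears treated with MC903, a vitamin D analogue used to inflame skin, and 3 from WT lymph nodes.

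Tregs restrain other immune cells and depend on the transcription factor Foxp3. Rora encodes ROR-alpha, a nuclear receptor that binds DNA as a monomer at response elements made of an AGGTCA core behind an A/T-rich stretch. The REV-ERB receptors, encoded by Nr1d1 and Nr1d2, bind the same elements and repress. ROR and REV-ERB receptors together set the rhythm of Arntl, which encodes the clock activator BMAL1.

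Rora was read in every library. WT skin Tregs held 1327, 1341 and 1510.1 CPM and cKO skin Tregs held 822, 1074 and 1199 CPM, in CPM, counts per M of the scaled library, where M is the prefix mega. The 2 genotypes did not overlap, with cKO lower. The difference was -0.43 ± 0.15 on the log2 scale (n = 3 per group). Each ± here and below is an SE worked back from the test statistic of the fit to all 15 libraries. The difference did not pass the quasi-likelihood test of edgeR after Benjamini-Hochberg adjustment (adjusted p = 0.25). Counts were per gene and not per exon, and an allele that has lost an exon can still be transcribed. Foxp3 itself stood at 148, 202 and 163 CPM in WT against 149.5, 163 and 128 in cKO, with overlapping groups and a log2 difference of -0.22 ± 0.24 (adjusted p = 0.792).

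The 6 libraries held 19.8 to 27.2 M counts and a count in 13515 to 14434 genes. On a principal component analysis of these 6, the first component held 30.9% of the variance and set WT skin replicate 2 apart from the other 5 libraries. Markers of sorted T cells and Tregs summed to 9938 to 10562 CPM in WT and 9380 to 10582 CPM in cKO. Keratinocyte markers summed to 440 to 837 CPM in WT and 386 to 582 CPM in cKO, with 1 of 16 tested members called, the stratifin gene Sfn (248, 306 and 217 CPM in WT against 130.2, 172 and 154 in cKO, adjusted p = 0.0387). The call of Sfn ended in 9 of the 14 alternative analyses (adjusted p = 0.0587 to 0.162). Macrophage, dendritic and Langerhans cell markers summed to 733 to 1618 CPM in WT and 887 to 2075 CPM in cKO. Fibroblast and endothelial markers summed to 210 to 262 CPM in WT and 131 to 359 CPM in cKO. The markers of CD8 T cells, gamma-delta T cells, NK cells and innate lymphoid cells summed to 19.3 to 37.6 CPM in WT and 28.5 to 45.3 CPM in cKO, with Ncr1 and Klrb1c at 0 in all 6 libraries. Mast cell and granulocyte markers summed to 20.1 to 28.3 CPM in WT and 12.7 to 19.6 CPM in cKO. B cell markers summed to 8.51 to 12.8 CPM in WT and 8.88 to 12.7 CPM in cKO. WT skin replicate 2 also held 31.3 CPM of the skeletal muscle actin gene Acta1, against 1.40 to 3.58 CPM in the other 5 libraries. Markers of melanocytes, muscle, nerve and fat summed to 18.2 to 81.8 CPM in WT and 9.26 to 29.3 CPM in cKO, and those of erythroid cells and platelets to 0.851 to 6.89 CPM and 1.55 to 2.88 CPM. Of 108 tested markers of other cells edgeR called Sfn alone, with 14 at an unadjusted p under 0.05, and limma-voom called 0. DESeq2 called 5, which were Sfn, the macrophage and granulocyte integrin gene Itgam (adjusted p = 0.00315), the mast cell protease gene Cpa3 (adjusted p = 8.48e-04), the platelet factor gene Pf4 (adjusted p = 0.0140) and, higher in cKO, the B cell gene Cd22 (adjusted p = 0.0197). Itgam, at 0.473, 0 and 1.40 CPM in WT against 0 in each cKO library, was also called without WT replicate 2 (adjusted p = 0.0193). The part of these other cells in the results below was not tested.

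Of 13578 genes tested, 54 were higher and 55 lower in cKO at an adjusted p under 0.05, the threshold for a call throughout, which is 0.803% of the genes tested (0.398% higher and 0.405% lower). The libraries of the 2 genotypes did not overlap in any of the 109, a separation that 13.6% of all genes tested showed. At an unadjusted p under 0.05 there were 1560 genes, 11.5% of those tested. The called changes ranged from large shifts in receptors such as Ccr6 and Tnfrsf25 to 41 changes of less than 1 on the log2 scale. The plot of every gene tested shows Colq, Ccr6, Nt5e and Tnfrsf25 on the lower side and Gzmb, Pde3b, Gpr15 and Tnfsf8 on the higher side. The counts moved with single libraries: they were 27 higher and 33 lower without WT skin replicate 3, 33 and 34 without cKO skin replicate 2, 30 and 32 without cKO skin replicate 3, and 33 and 54 without WT skin replicate 2. A model of these 6 libraries alone gave 52 higher and 26 lower calls and kept 57 of the 109, while DESeq2 called 193 higher and 152 lower. Of the 109 calls, 43 held without each library in turn and 35 held in all 14 alternative analyses, and every one kept its direction wherever it could be tested.

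**Figure D1:**
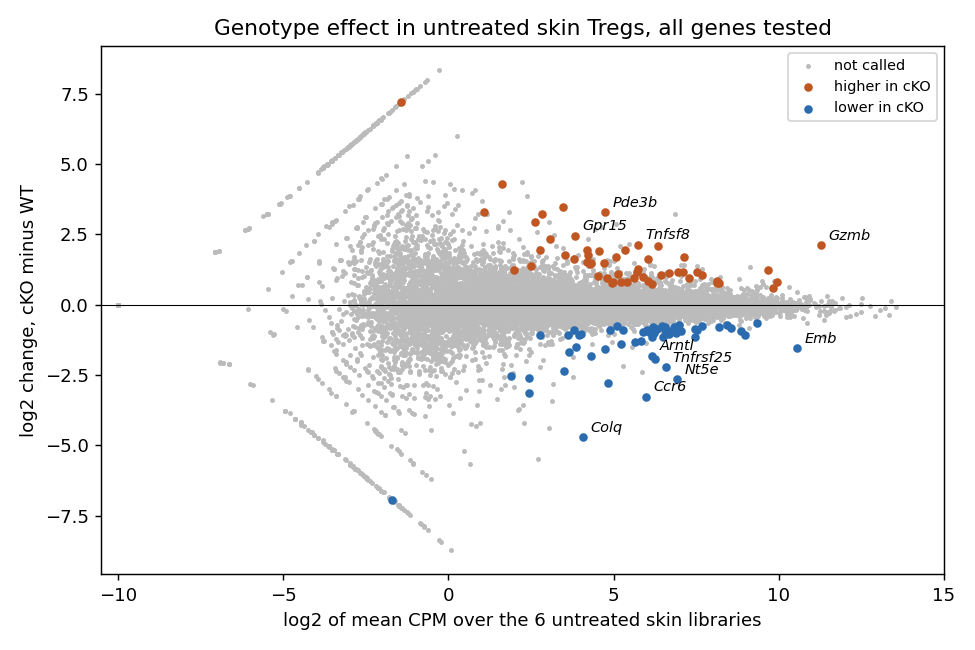
Each point is 1 of the 13578 genes tested, with the log2 of its mean CPM over the 6 untreated skin libraries on the horizontal axis and the log2 change of cKO minus WT on the vertical axis. The 54 genes called higher in cKO are orange and the 55 called lower are blue, and the straight lines of grey points at low expression are genes read in few libraries.

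**Figure D2:**
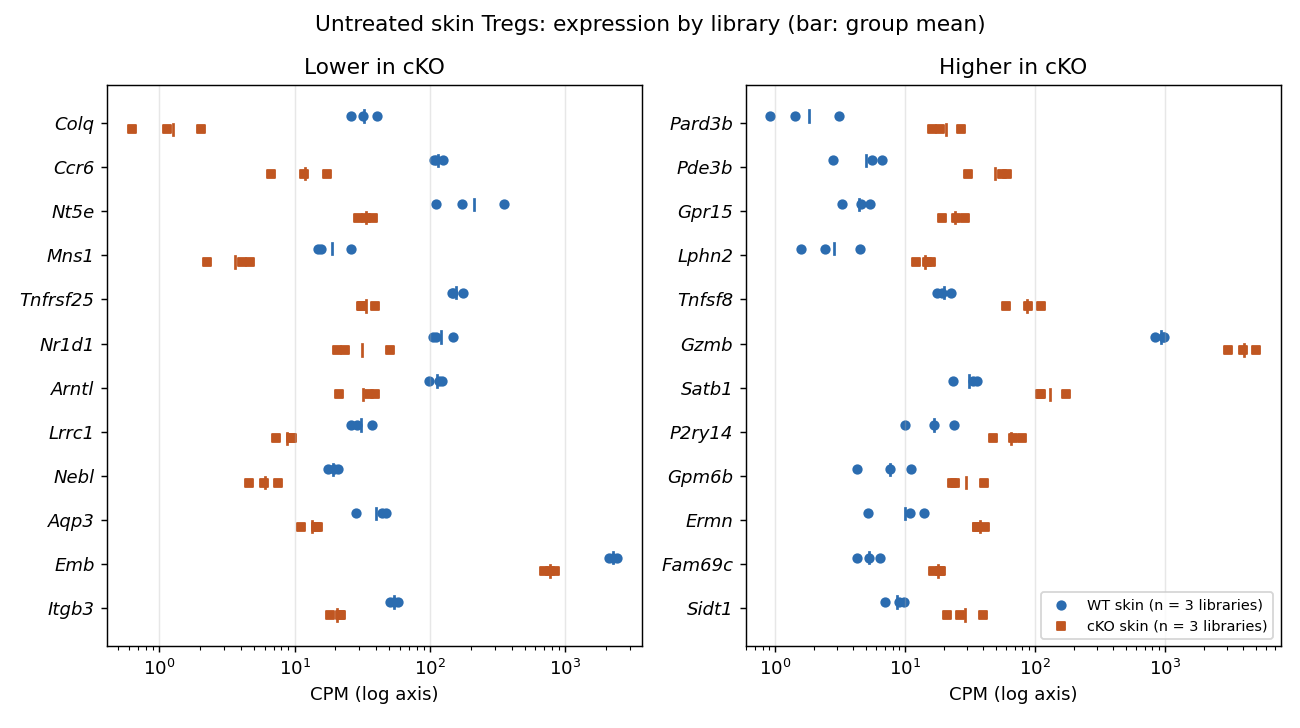
CPM on a log axis in each of the 3 WT and 3 cKO untreated skin libraries (points), with the group mean as a bar, for the 12 genes of each direction with the largest changes among genes of at least 3 mean log2 CPM. Only called genes without overlap between the genotypes could be chosen, so the separation of the points follows from the choice. The 24 genes run from Colq at 0.625 to 2.03 CPM in cKO against 26 to 40.4 in WT to Sidt1 at 6.999 to 9.74 CPM in WT against 20.8 to 39.7 in cKO.

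Core clock genes were among those that fell. Of 24 genes of the ROR and REV-ERB receptors and the circadian clock, 2 fell, 0 rose and 22 did not pass the test, with a median log2 difference of -0.32 against -0.0049 over all genes tested. The 2 genotypes did not overlap in 10 of the 24 (41.7%), against 13.6% of all genes tested. This and the lists below were chosen with earlier results of these data known. Their shares and medians are therefore not independent of those results. Rora, the floxed gene, is itself a ROR receptor gene, and its libraries were apart as given above. Arntl was read at 122, 98.8 and 117 CPM in WT against 21.4, 39.1 and 35.3 in cKO. The highest cKO library held less than the lowest WT library, and Arntl fell by 1.82 ± 0.19 on the log2 scale (adjusted p = 1.90e-04). Nr1d1, which encodes REV-ERB-alpha, stood at 147, 106 and 111 CPM in WT against 23.6, 50.4 and 20.6 in cKO, where replicate 2 lay highest. It fell by 1.94 ± 0.30 (adjusted p = 0.00359), and both calls held in all 14 alternatives. The next genes by p, chosen after their values were seen, did not pass in edgeR with all 15 libraries. Cry1, a clock repressor gene, was at 172, 117 and 149.9 CPM in WT against 82.9, 107 and 86 in cKO (log2 difference -0.67 ± 0.16, adjusted p = 0.0646). DESeq2, limma-voom and the analysis without WT replicate 2 called Cry1 lower. Ciart, another repressor gene of the clock, was at 37, 52.2 and 40.7 CPM in WT against 22.2, 26.4 and 30.2 in cKO (-0.72 ± 0.20, adjusted p = 0.125). DESeq2 called Ciart lower, and limma-voom called Hlf, another gene of the list, lower. Nr1d2, which encodes REV-ERB-beta, was at 206, 150.0 and 209 CPM in WT against 84.3, 150.4 and 124 in cKO, where replicate 2 of each genotype lay at about the same level, and the difference was -0.66 ± 0.20 (adjusted p = 0.189).

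Promoter sequences were searched for the motif TAGGTCA, the AGGTCA core with a T before it, because ROR-alpha and the REV-ERB receptors bind such elements. The windows run from 250 bases before to 50 bases after each annotated start in the RefSeq table of GRCm38.p6, and both strands were searched. Of the 55 genes called lower, 44 had a promoter in the table, and 4 of their 64 promoters held TAGGTCA (6.25%). Of the 54 called higher, 42 had one, and 0 of their 60 promoters held it. Among the 13664 promoters of all genes tested, 1.84% did. The shorter core AGGTCA, which the longer motif contains, was in 13 of the 64 promoters of lower genes (20.3%), in 4 of the 60 of higher genes (6.67%) and in 12.7% of those of all genes tested. The related motif TGGGTCA was in 1 of the 64 (1.56%), that of Camk1d, in 0 of the 60 and in 3.48% of all. Colq had no entry. A match is a string of letters in this window and shows no binding. The 4 promoters with TAGGTCA are printed on the strand of the gene with the match in capitals, which in Ccr6 reads TGACCTA because the match is on the opposite strand. The match begins 44 bases before the start in Ccr6, 30 bases after it in Arntl, 124 before it in Cd320 and 63 before it in Leo1.
Ccr6, chr17:8235793-8236092, plus strand: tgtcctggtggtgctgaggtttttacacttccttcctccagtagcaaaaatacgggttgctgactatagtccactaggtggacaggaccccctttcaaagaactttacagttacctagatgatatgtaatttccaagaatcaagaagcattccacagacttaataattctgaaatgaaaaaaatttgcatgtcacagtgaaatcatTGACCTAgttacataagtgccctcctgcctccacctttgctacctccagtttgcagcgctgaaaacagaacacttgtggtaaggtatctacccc
Arntl, chr7:113207261-113207560, plus strand: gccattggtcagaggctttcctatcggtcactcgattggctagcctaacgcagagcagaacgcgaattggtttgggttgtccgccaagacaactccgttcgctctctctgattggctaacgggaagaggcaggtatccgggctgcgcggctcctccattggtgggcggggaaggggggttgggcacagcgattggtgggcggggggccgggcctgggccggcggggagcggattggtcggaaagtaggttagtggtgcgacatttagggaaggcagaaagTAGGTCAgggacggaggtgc
Cd320, chr17:33842841-33843140, plus strand: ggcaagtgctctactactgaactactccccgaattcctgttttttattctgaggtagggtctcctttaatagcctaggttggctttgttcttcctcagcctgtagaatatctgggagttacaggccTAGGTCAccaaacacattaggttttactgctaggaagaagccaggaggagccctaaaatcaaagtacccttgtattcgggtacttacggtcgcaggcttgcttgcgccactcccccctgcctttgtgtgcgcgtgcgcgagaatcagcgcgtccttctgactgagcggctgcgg
Leo1, chr9:75441274-75441573, plus strand: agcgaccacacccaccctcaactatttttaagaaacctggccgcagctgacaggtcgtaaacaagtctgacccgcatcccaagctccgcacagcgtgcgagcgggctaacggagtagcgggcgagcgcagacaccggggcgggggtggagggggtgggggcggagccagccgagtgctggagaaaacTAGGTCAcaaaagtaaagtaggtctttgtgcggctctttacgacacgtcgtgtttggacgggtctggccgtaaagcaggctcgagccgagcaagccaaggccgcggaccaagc
Ccr6 encodes a chemokine receptor and Leo1 a subunit of the PAF1 transcription elongation complex. Cd320 encodes the receptor for vitamin B12 bound to transcobalamin. Cd320 was read at 50.4, 51.2 and 51 CPM in WT against 27.9, 29.7 and 24.8 in cKO and fell by 0.89 ± 0.14 (adjusted p = 0.00485). It is outside the rule for named genes and is given for its promoter. Its call ended in 1 of the 14 alternatives (adjusted p = 0.0616).

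Tnfrsf25 encodes death receptor 3, a receptor on T cells for the cytokine TL1A. Its level was 146, 176 and 149 CPM in WT against 31.3, 39.1 and 31.1 in cKO. The 3 cKO libraries lay close together, far below the 3 WT libraries, and Tnfrsf25 fell by 2.21 ± 0.17 on the log2 scale (adjusted p = 6.59e-06), the smallest adjusted p of the comparison. It was the 1 called member of 21 tested TNF receptors, of which 20 did not pass, and the median of the list was 0.20. In bulk libraries such as these, fewer cells with a transcript and less transcript per cell cannot be told apart.

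Among the 15 TNF ligands tested 3 rose, 1 fell and the other 11 did not pass. The median log2 difference was 0.88, also with the gene at 0 in 1 group at its bound. Of the 15, in a list chosen with earlier results known, 7 had non-overlapping libraries (46.7%), against 13.6% of all genes tested. Tnfsf8, which encodes CD30 ligand, was at 17.5, 19.4 and 22.4 CPM in WT against 111, 59.4 and 88.4 in cKO, and every cKO library was above every WT library. It rose by 2.13 ± 0.30 (adjusted p = 0.00212). Cd40lg, which encodes the ligand by which helper T cells stimulate B cells and dendritic cells, was at 28.5, 32.6 and 35.1 CPM in WT against 78.8, 70.4 and 68.5 in cKO. It rose by 1.18 ± 0.16 (adjusted p = 0.00185), and both calls held in all 14 alternatives. Tnfsf10, the gene of the death ligand TRAIL, was at 20.7, 16.8 and 20.1 CPM in WT against 39.5, 30.9 and 39.6 in cKO (0.93 ± 0.20, adjusted p = 0.0376). Its call ended in 7 alternatives, among them those without any 1 of the 3 WT libraries or without cKO replicate 1 or 3 (adjusted p = 0.0616 to 0.154). Tnfsf13b, which encodes the B cell survival factor BAFF, had 3, 21 and 14 counts in WT and 0 in each cKO library. It was at least 14.7-fold lower in cKO, taking 3 counts over the group as the floor. The call of Tnfsf13b (adjusted p = 0.0468) ended in 8 alternatives, among them those without WT replicate 2 or 3 or without any 1 cKO library (adjusted p = 0.091 to 0.35 over the 8). Tnfsf11, the RANK ligand gene, chosen after its values were seen, did not pass at 20.5, 24.6 and 29.9 CPM in WT against 53.9, 51.3 and 35 in cKO (adjusted p = 0.0845). DESeq2 called Tnfsf11 higher.

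Receptors for chemokines and homing signals split in both directions. Of the 27 tested 1 rose, 3 fell and the other 23 did not pass, with a median of -0.17. Ccr6, the receptor for CCL20, was at 108, 111 and 124 CPM in WT against 17.3, 11.7 and 6.68 in cKO, where replicate 3 was lowest. The highest cKO library lay far below the lowest WT library, and Ccr6 fell by 3.27 ± 0.34 (adjusted p = 2.09e-04). Ccrl2, which encodes an atypical receptor that binds chemerin, was at 111, 112 and 149.7 CPM in WT against 56.2, 62.6 and 49.4 in cKO and fell by 1.15 ± 0.15 (adjusted p = 8.16e-04). Gpr15, a G protein-coupled receptor gene known for lymphocyte homing to the gut and skin, rose from 5.34, 4.60 and 3.28 CPM in WT to 24.6, 19.1 and 28.9 in cKO. Its log2 change was 2.45 ± 0.28 (adjusted p = 2.76e-04), and limma-voom was the 1 alternative of 14 that did not call it (adjusted p = 0.0683). Cxcr6 was at 581, 454 and 799 CPM in WT against 360.0, 338 and 251 in cKO (-0.95 ± 0.21, adjusted p = 0.0438). That call ended in 8 alternatives, without any 1 library other than WT replicate 2 among them (adjusted p = 0.0647 to 0.19 over the 8). Cxcr3, a receptor of type 1 effector cells, was at 66.2, 55.6 and 63.7 CPM in WT against 26.1, 36.9 and 38.7 in cKO and did not pass (-0.87 ± 0.20, adjusted p = 0.0509), though it did in 4 alternatives. Cxcr3 was chosen after its values were seen. Among 15 integrin genes 1 fell and 14 did not pass. Itgb3, the integrin beta 3 gene, was at 54.2, 50.9 and 57.6 CPM in WT against 21.5, 22.1 and 18.4 in cKO and fell by 1.39 ± 0.17 (adjusted p = 5.62e-04).

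Genes of nucleotide enzymes and receptors changed in both directions. Of 25 tested genes of the purine and adenosine list, 2 rose, 1 fell and 22 did not pass, with a median of 0.12. Nt5e encodes CD73, which makes adenosine from AMP at the cell surface. It was at 172, 110.4 and 351 CPM in WT against 33.6, 29.1 and 37.7 in cKO, so that WT spread widely while cKO did not, and the groups stayed apart. Nt5e fell by 2.66 ± 0.32 (adjusted p = 8.16e-04). P2ry14, a receptor gene for UDP-glucose, was at 16.6, 10.04 and 23.8 CPM in WT against 79.3, 47.1 and 68 in cKO and rose by 1.95 ± 0.29 (adjusted p = 0.00266). Entpd4, an intracellular nucleotidase gene, was at 25.2, 21.6 and 20.8 CPM in WT against 43.2, 60.2 and 40.2 in cKO (1.09 ± 0.19, adjusted p = 0.0103). Its call ended without WT replicate 3, without cKO replicate 2 and with only the compared groups in the fit (adjusted p = 0.0592 to 0.0654).

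Pde3b encodes a phosphodiesterase that degrades cAMP. It was at 5.53, 6.59 and 2.80 CPM in WT against 30.6, 55.5 and 60.5 in cKO, with the lowest cKO library more than 4 times the highest WT library, and it rose by 3.29 ± 0.34 (adjusted p = 1.79e-04). It was the 1 called gene of 31 tested phosphodiesterase and cAMP genes, whose median was 0.23. Calls in the neurotransmitter and neuropeptide list were 2 higher and 1 lower of 25 tested, with a median of 0.13, or 0.07 with genes at 0 in a group at their bound. Colq, the gene of the collagen tail that anchors acetylcholinesterase, was at 26, 40.4 and 31.9 CPM in WT against 1.14, 2.03 and 0.625 in cKO. It was close to absent in each cKO library and fell by 4.70 ± 0.38 (adjusted p = 9.11e-06), the largest change among called genes of at least 3 mean log2 CPM. Gad1, which encodes the enzyme that makes GABA from glutamate, was at 0.851, 1.33 and 2.05 CPM in WT against 14.2, 7.98 and 10.4 in cKO and rose by 2.95 ± 0.36 (adjusted p = 5.01e-04). Calca, which encodes calcitonin and the neuropeptide CGRP, was at 52.7, 89 and 89.9 CPM in WT against 173, 159 and 183 in cKO (1.15 ± 0.25, adjusted p = 0.0413). The Calca call ended without any 1 of the 6 libraries and with the replicate block (adjusted p = 0.0671 to 0.157).

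Among 19 cytotoxic granule genes 2 rose, 0 fell and 17 did not pass, with a median of 0.24. Gzmb encodes granzyme B, a protease that kills target cells. It was at 988, 842 and 973 CPM in WT against 5037, 3062 and 4017 in cKO, and every cKO library was more than 3 times every WT library. Gzmb rose by 2.11 ± 0.23 (adjusted p = 2.35e-04). Nkg7, a granule protein gene of cytotoxic lymphocytes, was at 84.3, 102 and 70.6 CPM in WT against 222, 193 and 158 in cKO (1.16 ± 0.23, adjusted p = 0.0226). Its call ended without WT replicate 1 or 3, without cKO replicate 1 or 2, and with the replicate block (adjusted p = 0.0511 to 0.107). Of the 12 tested markers of CD8, gamma-delta, NK and innate lymphoid cells 0 were called by edgeR, DESeq2 or limma-voom, with 1 at an unadjusted p under 0.05 in edgeR, and their summed ranges, given above, overlapped. Cd8b1, chosen after its values were seen, was at 10.2, 8.84 and 9.96 CPM in WT against 20.9, 11 and 19.4 in cKO. Its groups were apart, and its log2 difference of 0.83 ± 0.26 did not pass in edgeR (adjusted p = 0.209). Cd8a was at 1.65, 0 and 0.108 CPM in WT against 0, 0 and 0.312 in cKO, and Ncr1 and Klrb1c were at 0 throughout. The part of such cells in the levels of Gzmb and Nkg7 was not tested.

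Suppressive molecules of Tregs were counted apart from these. Of the 19 tested 1 rose (Gzmb), 1 fell (Nt5e) and the other 17 did not pass, with a median of 0.02. Il10, the gene of the anti-inflammatory cytokine IL-10, was at 556, 556 and 545 CPM in WT against 559, 533 and 549 in cKO, which lay within the same range (log2 difference -0.01 ± 0.15, adjusted p = 0.992). Lrrc32, chosen after its values were seen, encodes GARP, which holds latent TGF-beta on the Treg surface. Its values were 70.02, 38.2 and 102 CPM in WT against 18.7, 30.8 and 24.3 in cKO. The difference of -1.505 ± 0.33 did not pass (adjusted p = 0.0515). Lrrc32 was called lower by DESeq2, with the filter of 50 counts, with the 12 skin libraries alone and without WT replicate 2.

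Transcription factors of skin Tregs were read next. Of 28 tissue Treg programme genes tested, 2 rose and 26 did not pass, with a median of 0.05. Libraries did not overlap in 12 of them (42.9%), against 13.6% of all genes tested, in a list chosen with earlier results known. Ahr, the aryl hydrocarbon receptor gene, was at 75.1, 65.6 and 53.4 CPM in WT against 115, 148 and 162 in cKO (1.13 ± 0.21, adjusted p = 0.0153). The call of Ahr ended without WT replicate 2 or 3 and without cKO replicate 2 or 3 (adjusted p = 0.0551 to 0.0849). Gata3, a factor of type 2 lymphocytes and tissue Tregs, was at 866, 614 and 674 CPM in WT against 983, 1101 and 1158 in cKO (0.59 ± 0.13, adjusted p = 0.0448). That call ended in 8 alternatives, among them those without WT replicate 2 or 3 or any 1 cKO library (adjusted p = 0.0548 to 0.198). Satb1, a chromatin organiser that is low in Tregs compared with other T cells, rose from 33.2, 36 and 23.3 CPM in WT to 108, 174 and 110.5 in cKO. Its change was 2.09 ± 0.34 (adjusted p = 0.00886), and the call ended in 1 of the 14 alternatives, without WT replicate 3 (adjusted p = 0.0581). Among 23 Treg identity genes Satb1 rose, Nt5e fell and 21 did not pass, with a median of 0.02. Runx1, a partner of Foxp3, was at 82.9, 83.1 and 86.8 CPM in WT against 40.6, 54.4 and 42.3 in cKO and fell by 0.88 ± 0.16 (adjusted p = 0.00996). The Runx1 call ended without cKO replicate 1 or 3 and with only the compared groups in the fit (adjusted p = 0.0575 to 0.0677).

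Cytokine genes of type 2 responses did not pass. Il4 was at 1.56, 3.94 and 2.37 CPM in WT against 5.08, 4.01 and 4.34 in cKO (0.77 ± 0.42, adjusted p = 0.524). Il5 was at 1.23, 4.42 and 0 CPM in WT against 1.91, 6.12 and 0 in cKO, and Il13 at 2.32, 4.20 and 2.58 CPM in WT against 4.32, 5.001 and 4.45 in cKO, with adjusted p = 0.943 and 0.813. At these low levels the libraries of the 2 genotypes were apart for Il4 and Il13 and overlapped for Il5. Areg, which encodes the tissue repair factor amphiregulin, overlapped at 384, 518 and 334 CPM in WT against 557, 391 and 425 in cKO (0.15 ± 0.21, adjusted p = 0.846). Il1rl1, the IL-33 receptor gene, was at 649, 593 and 768 CPM in WT against 819.8, 767 and 863 in cKO (0.29 ± 0.15, adjusted p = 0.49). Of 23 tested type 2 genes 1 rose (Gata3) and 22 did not pass, with a median of 0.15. Of 20 type 17 genes 2 rose (Ahr and Il6st), 2 fell (Ccr6 and Runx1) and 16 did not pass, with a median of -0.14. Of 22 type 1 genes edgeR called 0, with 4 at an unadjusted p under 0.05, limma-voom 0 and DESeq2 1, which was Cxcr3 (adjusted p = 0.00330). Cxcr3 also passed with the replicate block, with no filter and with the filter of 50 counts (adjusted p = 0.0383 to 0.0453). The type 1 list, also chosen with earlier results known, had 7 genes with non-overlapping libraries (31.8%, against 13.6% of all genes tested). Its median was 0.19, or 0.23 with a gene at 0 in 1 group left out.

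Of 39 cytokine receptor chains 2 rose, 0 fell and 37 did not pass, with a median of 0.10. Il10ra, the ligand-binding chain of the IL-10 receptor, was at 135, 112 and 95 CPM in WT against 208, 260.1 and 297 in cKO. The groups were apart, and Il10ra rose by 1.16 ± 0.18 (adjusted p = 0.00386), in all 14 alternatives too. Il6st, which encodes the shared signalling chain gp130, was at 181, 102 and 118 CPM in WT against 227, 303 and 301 in cKO (1.05 ± 0.20, adjusted p = 0.0153). Its call ended without WT replicate 2 or 3, without cKO replicate 2 or 3, and with only the compared groups (adjusted p = 0.0682 to 0.0874). Of 21 tested NF-kappa-B targets 1 rose and 1 fell, with a median of 0.07. Ier3, an early response gene of that list and of the list of immediate early and heat shock genes, rose from 57.9, 79.9 and 62.2 CPM in WT to 296, 176 and 172 in cKO (1.69 ± 0.27, adjusted p = 0.00554). Cd83, a gene induced on activated lymphocytes and dendritic cells, was at 375, 357 and 561 CPM in WT against 279.9, 257 and 242 in cKO (-0.73 ± 0.16, adjusted p = 0.0394). That call ended in 7 alternatives, among them those without WT replicate 3 or any 1 cKO library (adjusted p = 0.0598 to 0.18).

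Several of the largest changes lay in genes outside these families. Emb encodes embigin, a membrane glycoprotein that chaperones lactate transporters. It was at 2096, 2247 and 2422 CPM in WT against 843, 771 and 696 in cKO and fell by 1.55 ± 0.17 (adjusted p = 2.17e-04), with the 3 libraries of each genotype close together. Aqp3, a channel gene for water and glycerol, was at 44, 28.4 and 47.1 CPM in WT against 11.2, 15 and 14.3 in cKO and fell by 1.56 ± 0.25 (adjusted p = 0.00446). It was the 1 called gene of 38 tested aquaporin and lipid genes (median 0.06). Nebl, which encodes the actin-binding protein nebulette, was at 17.6, 20.8 and 19.7 CPM in WT against 4.62, 7.59 and 5.90 in cKO and fell by 1.68 ± 0.29 (adjusted p = 0.00922). The Nebl call ended without cKO replicate 1 or 3 (adjusted p = 0.0545 and 0.052). Pard3b, a cell polarity gene, was at 3.12, 1.41 and 0.915 CPM in WT against 18.5, 16 and 27 in cKO and rose by 3.49 ± 0.51 (adjusted p = 0.00275). Sidt1, a gene of a membrane protein linked to RNA transport, was at 9.74, 9.02 and 6.999 CPM in WT against 20.8, 39.7 and 26.6 in cKO and rose by 1.75 ± 0.23 (adjusted p = 0.00112). Lphn2, an adhesion G protein-coupled receptor gene, was at 2.41, 1.59 and 4.47 CPM in WT against 15.8, 12.1 and 14.8 in cKO (2.33 ± 0.47, adjusted p = 0.0243). Its call ended without WT replicate 1 or 2 or any 1 cKO library (adjusted p = 0.0653 to 0.0961). Gpm6b, a proteolipid gene, was at 11, 4.29 and 7.59 CPM in WT against 40.7, 24.1 and 22.8 in cKO (1.94 ± 0.33, adjusted p = 0.00837). Ermn, which encodes an actin-binding protein known from oligodendrocytes, was at 11, 5.22 and 13.9 CPM in WT against 35.7, 35.7 and 41.4 in cKO (1.91 ± 0.36, adjusted p = 0.0153). The calls of Gpm6b and Ermn each ended in 3 alternatives. For Gpm6b these were without WT replicate 3, with only the compared groups and with limma-voom (adjusted p = 0.0511, 0.0525 and 0.0757). For Ermn they were without WT replicate 2, without cKO replicate 3 and with limma-voom (adjusted p = 0.0517, 0.0676 and 0.0993). Fam69c was at 5.29, 4.29 and 6.35 CPM in WT against 18.8, 16.5 and 18.7 in cKO (1.76 ± 0.38, adjusted p = 0.0394), a call that ended without any 1 of the 6 libraries and with the replicate block (adjusted p = 0.0561 to 0.148 over these 7 alternatives).

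In each of the remaining lists edgeR called 0 or 1 gene, 0% to 4.76% of the members tested, against 0.803% of all genes tested. Of 23 T cell receptor response genes edgeR and limma-voom called 0, with 6 at an unadjusted p under 0.05 in edgeR and a median of 0.05. DESeq2 called 2 of them, Tox2 and Batf (adjusted p = 0.00596 and 0.00663). Tox2, a gene of an HMG-box factor, was at 16.4, 5.84 and 14 CPM in WT against 3.01, 5.47 and 5.31 in cKO (-1.39 ± 0.33, adjusted p = 0.0659 in edgeR, and 0.00712 without WT replicate 2). Batf, the gene of an AP-1 family factor, was at 556, 614 and 460.2 CPM in WT against 1065, 682 and 780.4 in cKO (0.63 ± 0.15, adjusted p = 0.0706, and 0.0449 without cKO replicate 2). Of 29 glycolysis and hypoxia genes edgeR, DESeq2 and limma-voom called 0, with 5 at an unadjusted p under 0.05 in edgeR and a median of 0.06. Of 36 cell cycle genes 1 fell, the centromere histone gene Cenpa, and the median was 0.19. Cenpa was at 212, 247 and 265 CPM in WT against 165, 111 and 115 in cKO (-0.89 ± 0.17, adjusted p = 0.0156), a call that ended without WT replicate 2 or 3, without cKO replicate 2 or 3, and with only the compared groups (adjusted p = 0.0507 to 0.102). Of 42 oxidative phosphorylation subunits 1 fell, Cox7a2, and 38 had a negative difference, against 6868 of the 13578 genes tested. The median was -0.20 in untreated skin and 0.11 with MC903. The libraries of the 2 genotypes did not overlap in 1 of these 42 (2.38%), against 13.6% of all genes tested. The summed level was 7508, 8351 and 8415 CPM in WT against 8445, 6737 and 6719 in cKO, so that cKO replicate 1 lay above every WT library. Ndufs8 and Ndufv1, complex I genes that the list does not hold, were also called lower (-1.05 ± 0.16 and -0.92 ± 0.13, adjusted p = 0.00288 and 0.00216). Both lie on chromosome 19 beside other genes called lower. Tcirg1 (-0.95) is next to Ndufs8 among the genes tested, and Gstp1 (-0.88) is next to Ndufv1. Suv420h1 (-0.91), 2 tested genes from Tcirg1, was called lower too. Position and function were not told apart. Of 29 interferon-stimulated genes 1 rose, Ifit2, from 2.46, 2.74 and 1.94 CPM in WT to 5.55, 5.26 and 5.98 in cKO (1.23 ± 0.27, adjusted p = 0.0387), and the list's median was 0.14. The Ifit2 call ended in 10 alternatives, every 1 of the 6 left-out libraries among them (adjusted p = 0.0681 to 0.41). Resting T cell genes gave 1 higher call of 21 (Satb1, median -0.01), immediate early and heat shock genes 1 of 26 (Ier3, median -0.03), and checkpoint and costimulatory receptors 1 lower call of 30 (Cd83, median 0.17).

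**Figure D3:**
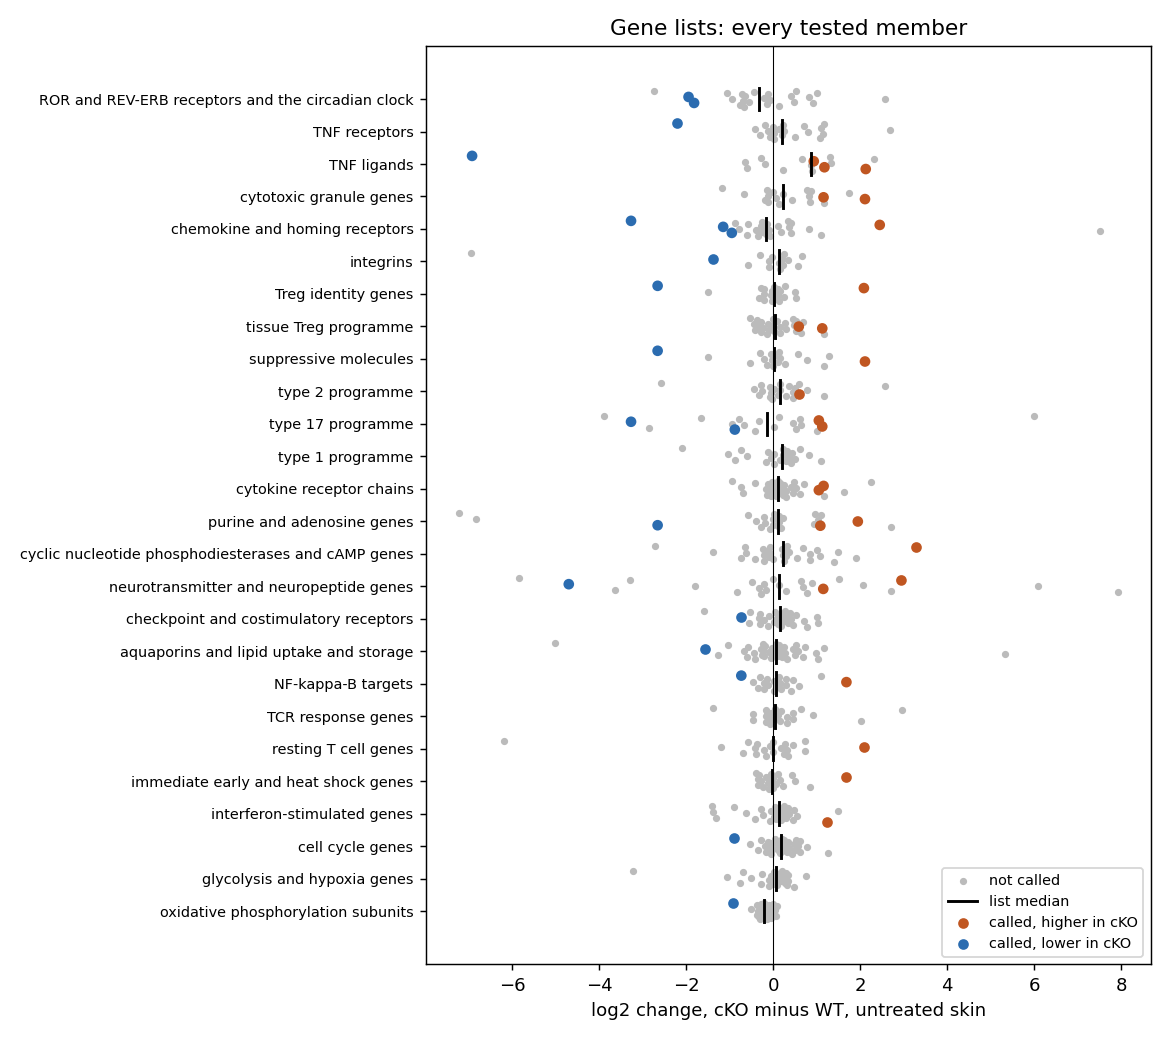
Log2 change of cKO minus WT in untreated skin (horizontal axis) for every tested member of 26 gene lists (one line each), with called members in colour, others in grey and the list median as a black bar. The clock list has its median at -0.32 and the TNF ligands at 0.88, while most other medians lie near 0.

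Genes that neighbour Rora on chromosome 9 were counted separately. Among the 100 tested genes on each side of Rora in the annotation's order, 9 of 200 were called (4.5%), against 100 of the 13377 other genes tested (0.748%). The strain origin of the DNA that flanks the floxed allele was not measured. On the higher side were Dapk2, Anxa2 and Fam46a, and on the lower side Mns1, Leo1, Lysmd2, Lrrc1, Cox7a2 and Nt5e. Dapk2, a death-associated kinase gene that lies 14 tested genes before Rora, was at 1.37, 0.575 and 2.15 CPM in WT against 9.53, 16 and 12.9 in cKO (3.23 ± 0.67, adjusted p = 0.0311). Anxa2, the annexin A2 gene 3 tested genes after Rora, was at 715, 763 and 705 CPM in WT against 1348, 1225 and 1225 in cKO (0.80 ± 0.16, adjusted p = 0.028). The calls of Dapk2 and Anxa2 ended without any 1 of the 6 libraries and with the replicate block (adjusted p = 0.0557 to 0.112). Mns1, which encodes a protein of motile cilia and sperm tails, was at 15.6, 26.3 and 14.9 CPM in WT against 2.24, 4.66 and 4.06 in cKO and fell by 2.37 ± 0.34 (adjusted p = 0.00216). Leo1 was at 89.4, 97.7 and 94.2 CPM in WT against 51, 49.9 and 59.8 in cKO and fell by 0.81 ± 0.12 (adjusted p = 0.00339), a call that ended with only the compared groups in the fit (adjusted p = 0.062). Lrrc1, a gene of a cell polarity scaffold, was at 28.7, 26.2 and 37.4 CPM in WT against 9.44, 9.61 and 7.30 in cKO and fell by 1.81 ± 0.28 (adjusted p = 0.00344). Fam46a was at 494, 528 and 433 CPM in WT against 1124, 1168 and 1112 in cKO and rose by 1.23 ± 0.22 (adjusted p = 0.012), but not without WT replicate 3 (adjusted p = 0.0692). Lysmd2 was at 7.94, 10.3 and 9.85 CPM in WT against 3.81, 4.66 and 4.84 in cKO (-1.08 ± 0.22, adjusted p = 0.0288). Cox7a2, a cytochrome c oxidase subunit gene, was at 94.1, 155 and 144 CPM in WT against 85.9, 61 and 59.99 in cKO (-0.92 ± 0.18, adjusted p = 0.0161). The Lysmd2 call ended in 9 alternatives (adjusted p = 0.0565 to 0.341) and the Cox7a2 call in 5 (adjusted p = 0.073 to 0.147), in both without WT replicate 2 or 3 or cKO replicate 2 or 3.

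Called genes also lay beside each other elsewhere. Placed in the annotation's order, 108 of the 109 had a position, and 99 of these lay outside the 200 genes around Rora. Among the 99, 8 pairs were immediate neighbours among the genes tested, each pair changed in 1 direction. Outside that region 15 of 195 tested genes beside a called gene were called themselves (7.69%), against 84 of 13130 others (0.640%). P2ry14 sat beside Gpr171, another G protein-coupled receptor gene, at 66.2, 33.7 and 68.4 CPM in WT against 157, 100.1 and 96.6 in cKO (1.07 ± 0.23, adjusted p = 0.0376). Gpr15 sat beside Cpox, a haem synthesis gene (0.82 ± 0.16, adjusted p = 0.0156), and Ier3 between Ddr1, a collagen receptor gene (1.70 ± 0.28, adjusted p = 0.00554), and Flot1, a membrane scaffold gene (0.99 ± 0.16, adjusted p = 0.00446). Pde3b had 1 tested gene between itself and Calca, and both rose, while Arntl, 7 tested genes from Pde3b, fell. These neighbours were chosen for their position after the calls were known, and the calls of Gpr171, Cpox and Ddr1 ended in 8, 5 and 1 of the 14 alternatives (highest adjusted p = 0.198, 0.142 and 0.0749). How reads of overlapping genes were divided is not given in the sources used here, and the kit does not mark strand.

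The same genotypes were sequenced from MC903-treated ears, in 6 other libraries. These were not in the untreated groups, but they were in the fit of all 15 libraries. Their spread therefore entered the untreated p-values, and the choice of the 109 genes was not independent of them. With only the compared groups in the fit, 57 of the 109 remained called. MC903 was applied 4 times, and the treated libraries came from ears without back skin, so that skin site and treatment cannot be told apart. There 11 genes were higher and 24 lower in cKO, 0.258% of those tested (0.081% and 0.177%). Of the 109 genes called in untreated skin 103 had the same sign with MC903 (52 of 54 higher and 51 of 55 lower), against 55.4% of all genes tested. Called in the same direction in both skins were 20, of which 5 were higher and 15 lower. In 83 of the 109 the MC903 libraries of the 2 genotypes were apart in the same direction, against 10.2% of all genes tested, and 16% of all genes were apart with MC903 in either direction.

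Genes called lower in both skins included receptors and clock genes. Tnfrsf25 stood at 171, 231 and 204 CPM in WT against 41.8, 51.4 and 40.01 in cKO with MC903, a change of -2.19 ± 0.16 there against -2.21 ± 0.17 in untreated skin (interaction adjusted p = 1). Arntl changed by -2.05 ± 0.19 and -1.82 ± 0.19 in the same order, Nr1d1 by -2.11 ± 0.31 and -1.94 ± 0.30, Mns1 by -2.499 ± 0.35 and -2.37 ± 0.34, and Aqp3 by -1.87 ± 0.25 and -1.56 ± 0.25. With MC903 Nr1d1 stood at 18, 29.6 and 30.1 CPM in WT against 4.88, 5.62 and 7.53 in cKO. Every WT library with MC903 held less Nr1d1 than any untreated WT library. Colq changed by -3.74 ± 0.36 and -4.70 ± 0.38, and Ccr6 by -4.47 ± 0.36 and -3.27 ± 0.34 (interaction adjusted p = 0.866). Leo1 (-0.92 ± 0.12 and -0.81 ± 0.12) and Nebl (-2.08 ± 0.30 and -1.68 ± 0.29) were also called in both. On the higher side Gzmb stood at 1185, 956 and 1247 CPM in WT against 4506, 3574 and 4538 in cKO with MC903 (changes of 1.90 ± 0.23 and 2.11 ± 0.23). Cd40lg (0.90 ± 0.16 and 1.18 ± 0.16), Nkg7 (1.92 ± 0.24 and 1.16 ± 0.23) and Dapk2 (4.97 ± 0.77 and 3.23 ± 0.67) were called higher in both as well. Marker sums of other cells with MC903 were apart between the genotypes for macrophages, dendritic and Langerhans cells and overlapped for the next 2 lists. Markers of macrophages, dendritic and Langerhans cells summed to 547 to 717 CPM in WT against 825 to 1144 in cKO. Those of CD8, gamma-delta, NK and innate lymphoid cells summed to 34.3, 20.3 and 40.6 CPM in WT against 40.4, 91.7 and 63.8 in cKO. Keratinocyte markers summed to 515, 195 and 568 CPM in WT against 163, 170 and 365 in cKO, with 1 of 16 called lower. The part of these cells in the MC903 values was not tested.

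Most differences were smaller in size with MC903. The median log2 change of the 54 higher genes was 1.33 in untreated and 0.69 in MC903 skin, and that of the 55 lower genes -1.05 and -0.64. The change was larger in untreated skin in 96 of the 109, a comparison that favours the skin in which the genes were chosen. No gene passed the test of the difference between the 2 effects in edgeR (0% called, with 765 genes, or 5.63%, at an unadjusted p under 0.05, and 21 called by DESeq2). Of the 109 genes 53 were at an unadjusted interaction p under 0.05. That count is not independent of the choice of the genes, because the tested difference contains the untreated effect by which they were chosen. The 3 of the 109 with the smallest interaction p were Gad1, Ccrl2 and Sidt1. Gad1 stood at 21.2, 20.2 and 18.1 CPM in WT against 34, 24.6 and 30.4 in cKO with MC903, a difference of 0.58 ± 0.31 (interaction adjusted p = 0.643). Every WT library with MC903 held more Gad1 than any untreated library of either genotype. Ccrl2 stood at 74.4, 69.8 and 77.6 CPM in WT against 63.4, 70.6 and 72.5 in cKO with MC903, where the groups overlapped (difference -0.10 ± 0.15, interaction adjusted p = 0.643). Sidt1 overlapped as well, at 24, 17.5 and 20.2 CPM in WT against 27.3, 23 and 20.2 in cKO (difference 0.19 ± 0.22, interaction adjusted p = 0.643).

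For Pde3b the MC903 values were 5.38, 6.39 and 6.49 CPM in WT against 9.72, 14.4 and 17.9 in cKO, apart but with a difference of 1.20 ± 0.31 that did not pass (adjusted p = 0.191, interaction adjusted p = 0.643). Tnfsf8 overlapped at 66.7, 77 and 38.7 CPM in WT against 115, 70.3 and 56 in cKO (0.40 ± 0.28, adjusted p = 0.913). Gpr15 stood at 57.8, 57.7 and 41.4 CPM in WT against 115, 114 and 80.3 in cKO, so that even the WT libraries held more than any untreated cKO library (0.98 ± 0.26, adjusted p = 0.191). Emb differed by -0.78 ± 0.17 (adjusted p = 0.0691) and Nt5e by -1.57 ± 0.31 (adjusted p = 0.0519), and neither passed. Il10, level between genotypes in untreated skin, stood at 210.3, 222 and 173 CPM in WT against 319, 312 and 308 in cKO with MC903 (0.63 ± 0.15, adjusted p = 0.133, interaction adjusted p = 0.866). Cry1 stood at 162, 188 and 154 CPM in WT against 49.1, 65.1 and 64.5 in cKO with MC903 and was called there (-1.496 ± 0.16, adjusted p = 2.37e-04, interaction adjusted p = 0.719).

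**Figure D4:**
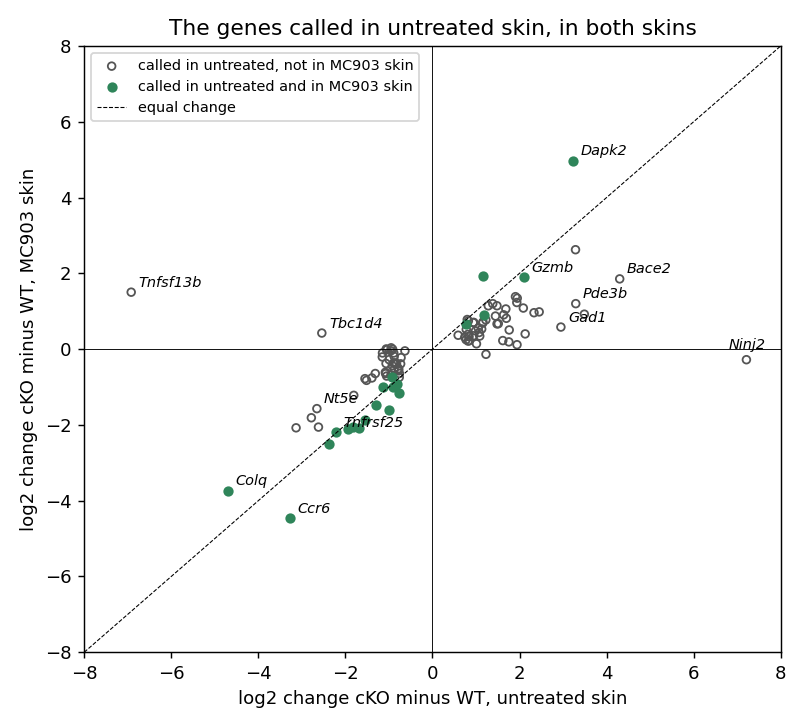
Log2 change of cKO minus WT in untreated skin (horizontal axis) and in MC903 skin (vertical axis) for the 109 genes called in untreated skin, with the 20 called in both skins filled. The points of 103 genes lie at the lower left and upper right, where the signs are equal, and Tnfsf13b, with no count in untreated cKO libraries, is among the 6 with opposite signs.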

How the data were processed

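RNA of sorted Tregs was amplified with the SMART-Seq v4 kit, which does not mark strand, and sequenced as 75 bp single-end reads, per the labels' protocols. TopHat2 2.0.6, mm9 and DESeq2 are named in the submitters' processing notes. The gene counter and its annotation are not given in the sources used here. The authors deposited raw counts per gene and library, whole numbers for 24015 gene symbols. A table of the authors' own comparison was not used.

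The analysis used edgeR 4.0.16 in R 4.3.3. Genes were kept by filterByExpr over the 5 groups of 3 libraries, which left 13578. Libraries were scaled by TMM, 1 model was fitted to all 15 libraries, and the genotype effect in untreated skin, that with MC903 and their difference were tested with glmQLFTest (quasi-likelihood, robust), with p-values adjusted after Benjamini and Hochberg over the genes tested. CPM divide each count by the TMM-scaled library size in M (mega). The common dispersion was 0.138. Each ± is the absolute log2 change divided by the square root of the F statistic of its test. Alternatives used DESeq2 1.42.0, limma 3.58.1 (voom with sample weights), other factors, filters and sets of libraries, and each of the 6 libraries left out in turn. The steps were tested on simulated data. Counts of PCR reads with no molecular identifier are not counts of molecules.

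The members and the 35 gene lists were chosen with earlier results of these data known. Genes named are 10 followed in any case, the 12 largest called changes each way among genes whose mean log2 CPM was at least 3 and whose libraries did not overlap, up to 6 called members of each list (or the 2 with the smallest p), called neighbours of Rora and the 3 called genes with the smallest interaction p. Others are said to be chosen later. Some genes are not reported here. Gene order and promoters came from RefSeq tables of GRCm38, another build than that of the files, by symbol (13526 of the 13578 matched for order), and genome coordinates were used for promoters alone.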

Additional observations from a re-analysis of the deposited data

How the results depend on the processing

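With each of the 6 libraries left out in turn, the number of genes higher in cKO ran from 27 to 69, the number lower from 32 to 64, the number also called with MC903 in the same direction from 16 to 24, and the number whose effect differed between the skins from 0 to 1. DESeq2 called 193 genes higher and 152 lower, among them all 109 called by edgeR, with 74 called in both skins and 21 differing between them. With only the compared groups in the fit 52 genes were higher and 26 lower, and 57 of the 109 remained called. limma-voom called 36 genes in both skins in the same direction, and 77 of the 109 remained. With relative log expression factors, no filter, a filter of 50 counts in 3 libraries, or the 12 skin libraries alone, each count stayed within 1.5 times that of the report. The replicate numbers in the titles did not pair the libraries: the deviations of same-numbered WT and cKO libraries from their group means correlated across genes at -0.13, -0.10 and -0.06, and none was highest with its own number. With the replicate block 46 genes were higher and 44 lower, 18 were called in both skins and 84 of the 109 remained. Of 79 named genes, 22 of the 49 called kept their call in all 14 alternatives, 7 of the 30 others were called in at least 1, and none reversed; the cause of each lost call was not tested. Il5, read at 0 to 6.12 CPM, was not called, which does not show equal levels.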

Other observations

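Outside the lists and the rule for named genes, 13 called genes kept their call in all 14 alternatives. They were chosen after their values were seen and are given as values. Among the 4 that rose, Rnf128, which encodes the ubiquitin ligase GRAIL known from T cell anergy, was at 38, 34.3 and 24.9 CPM in WT against 90.03, 93.3 and 119 in cKO, with every cKO library above every WT library. It rose by 1.64 ± 0.20 on the log2 scale (adjusted p = 5.62e-04, edgeR's quasi-likelihood test). Themis, a signalling gene of the T cell lineage, was at 10.8, 8.003 and 12.5 CPM in WT against 33.7, 27.7 and 25.9 in cKO (1.48 ± 0.21, adjusted p = 0.00188). Flot1 was at 38.5, 43.1 and 36.7 CPM in WT against 83.5, 71.3 and 80.03 in cKO, and Cldn25, a claudin family gene, was at 204, 203 and 209 CPM in WT against 395, 299.7 and 363 in cKO (0.78 ± 0.13, adjusted p = 0.00502).

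The other 9 fell. Rarg, the gene of the nuclear receptor for retinoic acid of the gamma type, was at 86.1, 91 and 64.9 CPM in WT against 30.1, 35.7 and 32.7 in cKO (-1.30 ± 0.20, adjusted p = 0.00339). With MC903 it was also called, at -1.47 ± 0.20 (adjusted p = 0.00167). Spsb3, which encodes an adaptor of ubiquitin ligases, was at 271, 260.5 and 197 CPM in WT against 106, 114 and 109 in cKO (-1.15 ± 0.13, adjusted p = 2.35e-04) and at -1.01 ± 0.13 with MC903 (adjusted p = 0.00108). Cerk, the ceramide kinase gene, was at 75.4, 57.3 and 83.4 CPM in WT against 21.6, 35.4 and 29.96 in cKO (-1.31 ± 0.22, adjusted p = 0.00554). Sh2d2a, which encodes a T cell adaptor protein, was at 638, 616 and 782 CPM in WT against 264, 412 and 286 in cKO (-1.08 ± 0.17, adjusted p = 0.00446). Ephx1, an epoxide hydrolase gene, was at 95.6, 96.1 and 76.8 CPM in WT against 46.5, 43.3 and 48.7 in cKO (-0.96 ± 0.15, adjusted p = 0.00446), with a difference of -0.05 ± 0.15 in MC903 skin (interaction adjusted p = 0.643). Ndufs8 and Ndufv1, genes of complex I of the respiratory chain that lie near each other on chromosome 19, changed by -1.05 ± 0.16 and -0.92 ± 0.13 (adjusted p = 0.00288 and 0.00216). The last of the 9 were Clip1, a microtubule-binding protein gene (-0.85 ± 0.12, adjusted p = 0.00207), and Sdc4, the syndecan 4 gene (-0.83 ± 0.13, adjusted p = 0.00437).

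A further pair of called genes was at or near 0 in every WT library of untreated skin. Ninj2, an adhesion protein gene, had 0 counts in each WT library and 22, 3 and 30 counts in cKO, at least 15.8-fold higher with 3 counts over the group as the floor. Its call (adjusted p = 0.0387) held in 4 of the 12 alternatives that gave a value and ended with the 12 skin libraries, the replicate block, limma-voom and 5 of the 6 left-out libraries (highest adjusted p = 0.445). In MC903 skin Ninj2 was at 2.58, 0.446 and 1.40 CPM in WT against 1.43, 1.21 and 1.001 in cKO, which overlapped. Bace2, a membrane protease gene, was at 0.567, 0.0884 and 0.215 CPM in WT against 6.56, 5.52 and 5.35 in cKO (4.30 ± 0.76, adjusted p = 0.00992), and limma-voom and the analysis without WT replicate 3 did not call it (highest adjusted p = 0.127). Both were chosen after their values were seen.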
